A study of Mus musculus with 4 samples.

Results

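The genes described are the suppressive cytokines interleukin 10 (Il10) and transforming growth factor beta 1 (Tgfb1) and the receptor chains that bind them, Il10ra, Il10rb, Tgfbr1 and Tgfbr2. They are 6 of the 31053 mouse genes in the deposited table, found by symbol: Il10 is ENSMUSG00000016529, Il10ra ENSMUSG00000032089, Il10rb ENSMUSG00000022969, Tgfb1 ENSMUSG00000002603, Tgfbr1 ENSMUSG00000007613 and Tgfbr2 ENSMUSG00000032440. They were chosen with earlier results of the same data known, so each level and ratio here is a description, with no test.

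IL-10 signals through a receptor of an IL-10-binding chain, Il10ra, and a chain shared with other cytokines, Il10rb, and activates the transcription factor STAT3. It is known for damping cytokine production and antigen presentation by macrophages and dendritic cells, and regulatory T cells, effector T cells, B-lineage cells and macrophages can all make it. TGF-beta is secreted in a latent form that has to be released, binds Tgfbr2, which recruits and phosphorylates Tgfbr1, and signals through SMAD proteins; it restrains effector T cells, helps regulatory T cells to form and is abundant in tumours.

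The data are single-cell RNA libraries of whole mouse lungs that carried tumours of KP cells (KrasG12DP53-/- lung cancer cells) injected intravenously into B6 mice. The design crosses the genotype of the injected cells, KP-Asf1a KO or KP-WT, with treatment of the mice by anti-PD-1 or control IgG. Asf1a encodes a histone chaperone, and PD-1 is an inhibitory receptor of T cells. The KO anti-PD-1 group carried KP-Asf1a KO cells and received anti-PD-1 (clone 29F.1A12). KO IgG carried the same cells under isotype IgG. WT anti-PD-1 carried KP-WT cells and received that antibody, and WT IgG carried KP-WT cells under isotype IgG. Antibody was given at 200 µg per mouse 3 times a week for 1 week. The deletion is in the injected tumour cells only, so all immune cells came from B6 hosts with an intact Asf1a gene, and all groups share the KP driver alleles, the intravenous route and the enzymatic digestion and sorting of live cells by DAPI. The number of KO clones, the number of mice behind a library and the age of the mice are items not given in the sources used here. Each group is 1 library, so a ratio compares libraries, a difference between mice cannot be told apart from one between conditions, and every interval below is an exact 95% interval that covers counting error only.

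After filtering, 5595 cells with a median of 1339 unique molecular identifiers (UMIs) were kept in KO anti-PD-1 and 5919 cells (median 1220) in KO IgG. The WT anti-PD-1 library kept 6187 cells (median 1881) and WT IgG 5659 (median 2026). Asf1a in tumour cells was 7.67 CPM (15 UMIs) in KO anti-PD-1, 9.82 CPM (28 UMIs) in KO IgG, 30.0 CPM (55 UMIs) in WT anti-PD-1 and 34.9 CPM (67 UMIs) in WT IgG. The labels and this gene therefore go the same way, although the counts come from 3′ tags and the labels do not say which part of the gene was deleted. CPM here means UMIs of a gene relative to 1000000 UMIs of all cells of a class in 1 library, and it is not scaled by transcript length, so levels are compared between cells and not between genes. Cells were clustered and named from marker lists; summed markers of the own type ranged over libraries from 4965 to 6474 CPM in T cells, from 121079 to 132527 CPM in neutrophils and from 26004 to 27197 CPM in macrophages. One cycling T sub-cluster was led by basophil genes (Mcpt8, Prss34) and sits among the T cells given no subset name. It raised the summed level of 9 basophil and mast cell markers in T cells to 556 CPM in KO anti-PD-1, against 4.30 in KO IgG, 4.40 in WT anti-PD-1 and 10.2 in WT IgG; results for T cells are given with and without it where they rest on it.

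**Figure D1:**
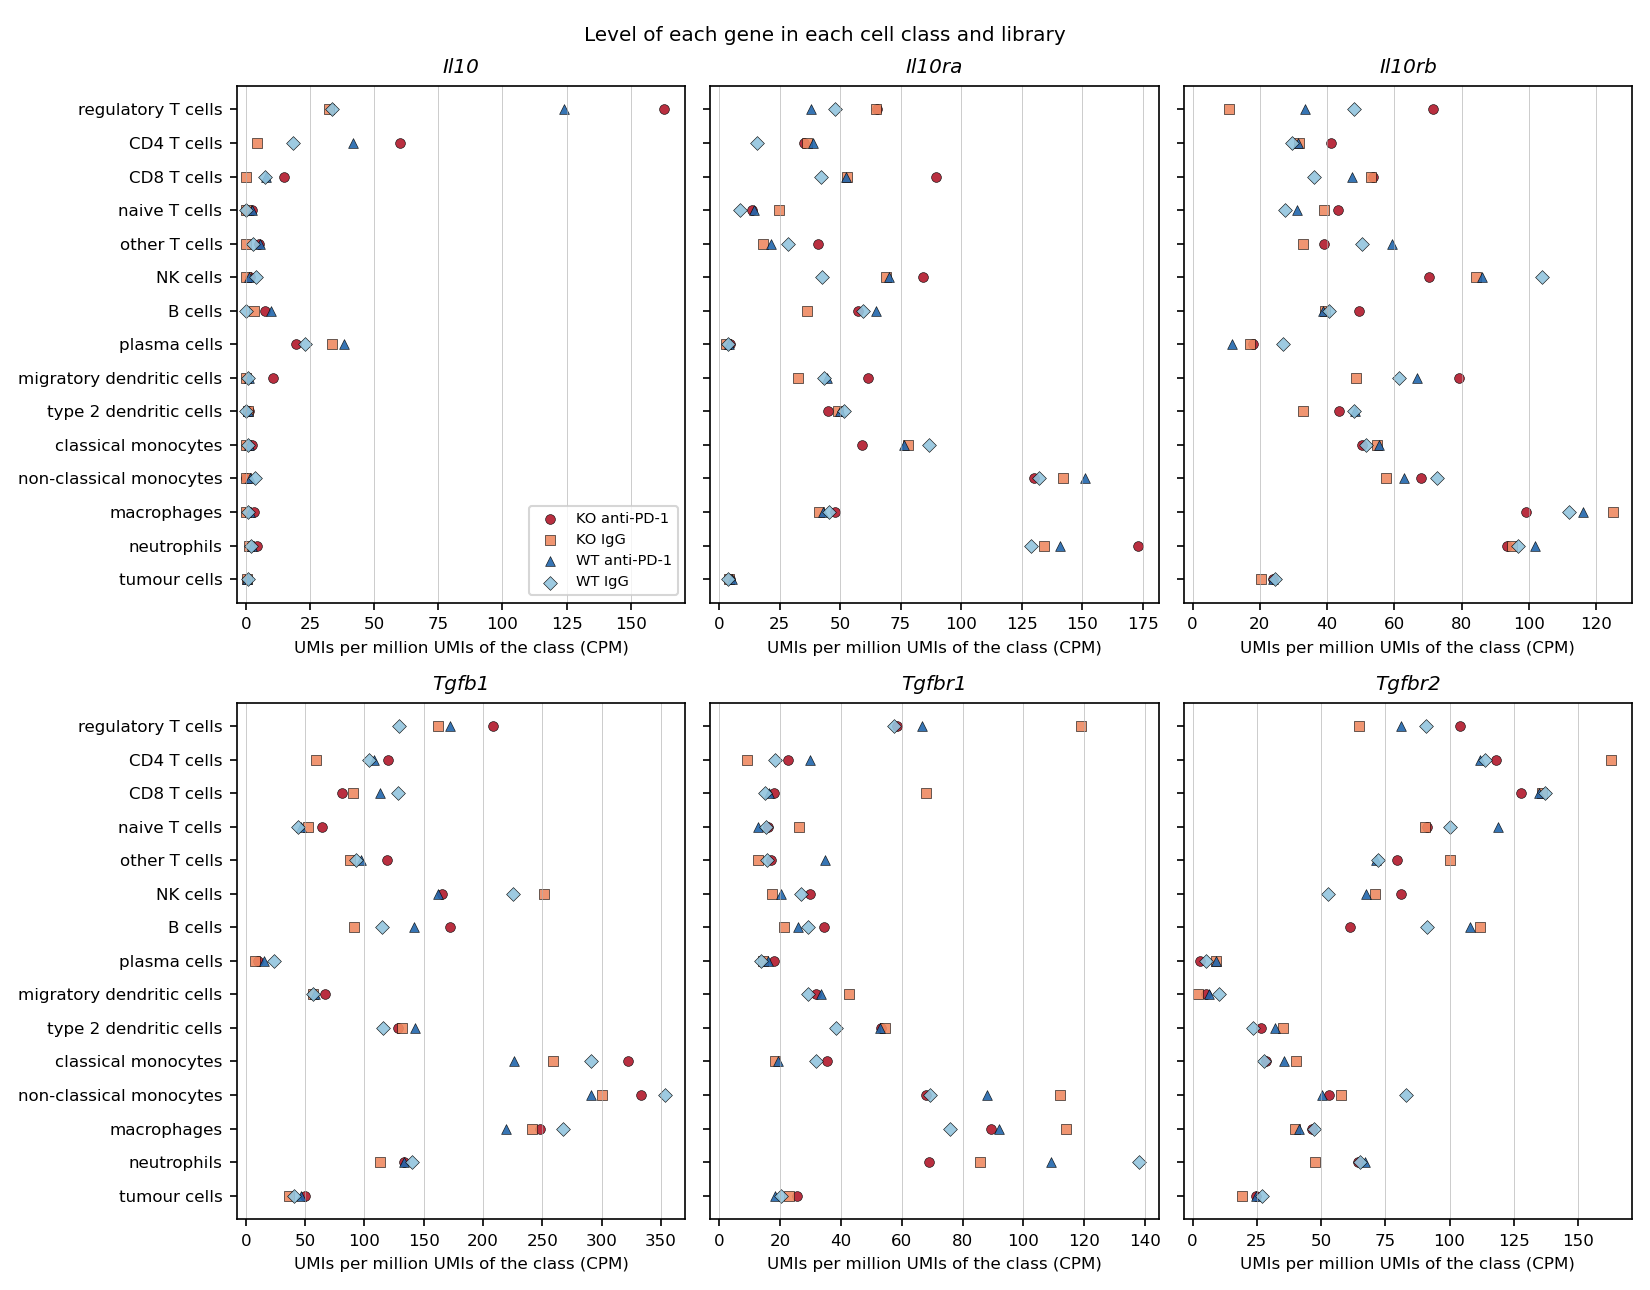
Level of each of the 6 genes (CPM, x axis, one scale per gene) in 15 cell classes and T cell subsets (y axis), 1 point per library: KO anti-PD-1, KO IgG, WT anti-PD-1 and WT IgG. Il10 stands out in regulatory T, CD4 T and plasma cells, Tgfb1 in monocytes and macrophages (219 to 267 CPM in macrophages of the 4 libraries), Il10ra and Tgfbr1 in neutrophils, and Tgfbr2 in T and B cells.

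Il10 was a rare transcript carried mostly by T cells and plasma cells. Of its 421 UMIs in all kept cells, 168 (39.9%) were in T cells and 150 (35.6%) in plasma cells. With the 4 libraries pooled, and among classes and subsets with at least 50 cells in each library, its level was highest in regulatory T cells at 91.7 CPM (70.2 to 118), followed by CD4 T cells at 34.1 CPM (26.6 to 43.0) and plasma cells at 28.9 CPM (24.5 to 34.0). The intervals of CD4 T cells and plasma cells overlap, so their order is not resolved. The order also depends on the library and on how the subsets are taken. In KO IgG, plasma cells had 33.6 CPM, regulatory T cells 32.4 and CD4 T cells 4.53, and with subsets taken by detected genes the pooled Il10 level was 26.9 CPM in regulatory T cells (13 UMIs) and 40.4 CPM in CD4 T cells (63 UMIs). CD8 T cells had 8.35 CPM and B cells 5.45 CPM. The myeloid classes were lower: 2.28 CPM in neutrophils, 1.41 in macrophages, 1.33 in classical monocytes and 1.12 in non-classical monocytes.

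In T cells as a whole Il10 was 31.2 CPM (63 UMIs) in KO anti-PD-1, 2.15 CPM (4 UMIs) in KO IgG, 16.1 CPM (73 UMIs) in WT anti-PD-1 and 5.81 CPM (28 UMIs) in WT IgG. Both anti-PD-1 libraries lay above both IgG libraries. The ratio of KO anti-PD-1 to KO IgG was 14.5 (5.39 to 54.8), and that of WT anti-PD-1 to WT IgG was 2.77 (1.77 to 4.45). The difference between these ratios was not tested, and the KO IgG value rests on 4 UMIs. Single cells weigh here too: 1 cell held 11 of the 63 UMIs in KO anti-PD-1, and 1 held 8 of the 28 in WT IgG. The intervals take UMIs as independent and do not cover this spread between cells. Without the cell with most Il10 UMIs in each library the ratio was 16.0 in KO and 3.56 in WT. KO anti-PD-1 was 1.94 times WT anti-PD-1 (1.36 to 2.76), where Il10 alone of the 6 genes was past 1.5-fold higher and none lower, beside 8.6% and 9.14% of all genes tested, and KO IgG was 0.371 times WT IgG (0.0945 to 1.06), an interval that includes 1. Without the cycling sub-cluster, which held 8 Il10 UMIs, the ratio of KO anti-PD-1 was 15.5 to KO IgG and 2.07 to WT anti-PD-1, and the ratio to WT IgG was 2.77 for WT anti-PD-1 and 0.371 for KO IgG.

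The make-up of the T cells moved with the groups. Regulatory T cells were 13.3% of T cells in KO anti-PD-1, 8.61% in KO IgG, 8.21% in WT anti-PD-1 and 6.68% in WT IgG, and naive T cells were 17.6% in KO anti-PD-1, 45.4% in KO IgG, 24.4% in WT anti-PD-1 and 40.4% in WT IgG. With the make-up held at that of WT IgG, an alternative chosen after seeing the data, the ratio of KO anti-PD-1 to WT anti-PD-1 for Il10 came to 1.33, against 1.94 in the T cells as sampled. The Il10 level within subsets is therefore given next.

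Within regulatory T cells KO anti-PD-1 had an Il10 level of 163 CPM from 25 UMIs (105 to 240) and KO IgG one of 32.4 CPM from 3 UMIs (6.69 to 94.8). WT anti-PD-1 had 124 CPM from 26 UMIs (80.9 to 181) and WT IgG 33.5 CPM from 7 UMIs (13.5 to 69.0). The anti-PD-1 libraries again stood above the IgG libraries, with a ratio of 5.02 (1.53 to 26.0) in KO and 3.70 (1.56 to 10.1) in WT, while KO anti-PD-1 and WT anti-PD-1 differed by a ratio of 1.31 whose interval runs from 0.728 to 2.37. The WT ratio depended on how cells were kept and grouped: it was 13.3 with at least 500 detected genes per cell, and 1.54 with no doublet removal, 1.59 at the coarser and 1.69 at the finer clustering. Among all genes tested in these cells, 14.2% were past 1.5-fold higher in KO anti-PD-1 over KO IgG and 13.9% in WT anti-PD-1 over WT IgG. Where regulatory T cells were instead taken as T cells with a Foxp3 UMI, Il10 was 129 CPM in KO anti-PD-1 (9 UMIs in 47 cells), 0 in KO IgG (32 cells, where 3 UMIs would be 71.5 CPM), 17.3 CPM in WT anti-PD-1 (3 UMIs in 68 cells) and 5.07 CPM in WT IgG (1 UMI in 54 cells).

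CD4 T cells outside that subset gave 59.9 CPM of Il10 in KO anti-PD-1 (29 UMIs), 4.53 CPM in KO IgG (1 UMI), 41.9 CPM in WT anti-PD-1 (28 UMIs) and 18.3 CPM in WT IgG (13 UMIs). The order of the libraries was that of the T cells as a whole, but with subsets taken by detected genes KO anti-PD-1 had 46.9 CPM and WT anti-PD-1 74.9, which turned the order of that pair. WT anti-PD-1 was 2.29 times WT IgG (1.15 to 4.81), where 10.6% of genes were past 1.5-fold higher, and KO anti-PD-1 was 13.2 times KO IgG (2.19 to 539), where 16.0% were. Over the alternative settings the WT ratio ran from 1.28 to 7.53 and the KO ratio from 4.09 to 14.7. CD8 T cells had 14.9 CPM in KO anti-PD-1 (5 UMIs), no UMI in KO IgG (3 UMIs would be 22.7 CPM), 7.79 CPM in WT anti-PD-1 (10 UMIs) and 7.62 CPM in WT IgG (4 UMIs), too few for a ratio between libraries to be read.

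**Figure D2:**
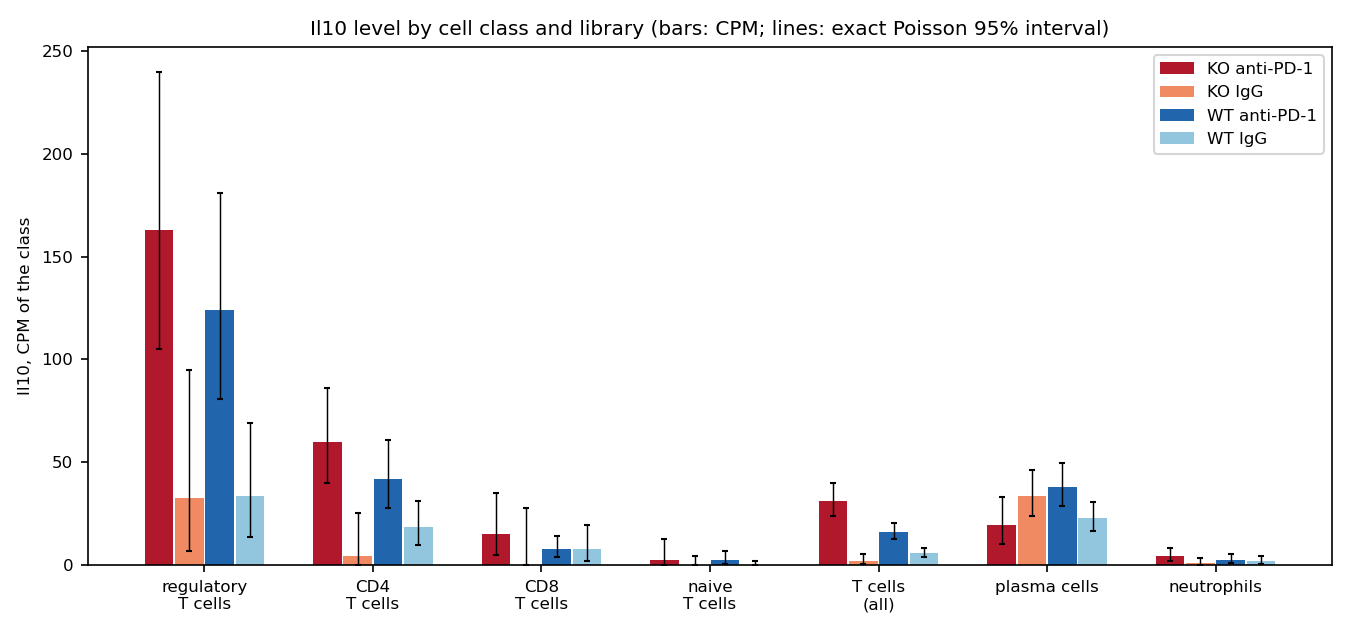
Il10 level (CPM, y axis) in T cell subsets, all T cells, plasma cells and neutrophils (x axis), 1 bar per library in the order KO anti-PD-1, KO IgG, WT anti-PD-1 and WT IgG, with exact Poisson 95% intervals as lines. In all T cells the bars stand at 31.2 CPM in KO anti-PD-1, 2.15 in KO IgG, 16.1 in WT anti-PD-1 and 5.81 in WT IgG, and in plasma cells WT anti-PD-1 is the highest at 38.1 CPM.

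The share of T cells with at least 1 Il10 UMI was 3.55% (2.51 to 4.87) in KO anti-PD-1, 0.405% in KO IgG, 2.29% in WT anti-PD-1 and 0.954% in WT IgG. Median depth of T cells was 1629 UMIs in KO anti-PD-1, 1654 in KO IgG, 2063 in WT anti-PD-1 and 2453 in WT IgG, so the T cells of WT anti-PD-1 were deeper than those of KO anti-PD-1 and had the lower share. Neutrophils, which are not a usual source of Il10 and were set beside T cells as a class of low level, had a share of 0.372% in KO anti-PD-1, 0.109% in KO IgG, 0.294% in WT anti-PD-1 and 0.267% in WT IgG. The origin of their Il10 UMIs was not tested. They were shallower, at a median of 771 UMIs in KO anti-PD-1, 893.5 in KO IgG, 1130 in WT anti-PD-1 and 1258 in WT IgG. Thinned to 1000 UMIs per cell, the share of T cells was 1.80% (0.990 to 3.01) in KO anti-PD-1, 0.124% in KO IgG, 0.919% (0.515 to 1.51) in WT anti-PD-1 and 0.262% in WT IgG. The thinned share of neutrophils was 0.647% (0.134 to 1.88) in KO anti-PD-1, 0.106% in KO IgG, 0.179% (0.0217 to 0.646) in WT anti-PD-1 and 0.203% in WT IgG. Thinning left out cells under 1000 UMIs, among them 78 of 138 regulatory T cells in KO anti-PD-1 and 48 of 85 in KO IgG. In WT anti-PD-1 it left out 87 of 158 and in WT IgG 45 of 112. Regulatory T cells with an Il10 UMI had a median of 826 UMIs, so the thinned shares miss many of them. Among the deeper cells, the shares of T cells in both IgG libraries were near those of neutrophils. Those in both anti-PD-1 libraries lay above the neutrophil shares by point value, with intervals that overlap.

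Il10 was concentrated in few T cells. Of the 12 T sub-clusters, 2 held 129 of the 168 Il10 UMIs in T cells (76.8%) and 899 of the 5630 T cells (16.0%). The first is the regulatory T sub-cluster, led by Areg, Foxp3, Tnfrsf4, Il1rl1 and Il2ra, in which 29.6% of cells had a Foxp3 UMI. The second, with 406 cells named CD4 T cells, was led by Gm2663. Its 10 leading genes included Ccl1, a chemokine ligand of CCR8, Tnfsf8 and Cd4, and its Il10 level was 79.3 CPM (61.6 to 101). By library this second sub-cluster gave 117 CPM in KO anti-PD-1 (28 UMIs in 9 cells), 11.9 CPM in KO IgG (1 UMI), 107 CPM in WT anti-PD-1 (28 UMIs in 13 cells) and 40.3 CPM in WT IgG (11 UMIs in 4 cells). The other CD4 sub-cluster, of 655 cells, had 2.45 CPM. Both sub-clusters together were 25.9% of T cells in KO anti-PD-1, 12.2% in KO IgG, 14.9% in WT anti-PD-1 and 13.2% in WT IgG. Within the regulatory T sub-cluster Il10 was 46.4 CPM (24.0 to 81.0) in the 146 cells with a Foxp3 UMI and 121 CPM (89.3 to 160) in the 347 cells without one. The order differed by library: KO anti-PD-1 had 180 CPM (9 UMIs) with a Foxp3 UMI and 155 CPM (16 UMIs) without. WT anti-PD-1 had 25.1 CPM (2 UMIs) with and 184 CPM (24 UMIs) without. WT IgG had 10.7 CPM (1 UMI) with and 52.1 CPM without, and KO IgG 0 with and 52.6 CPM without. The cells with a Foxp3 UMI were deeper, at a median of 1484 UMIs, against 844 in those without.

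T cells that carried an Il10 UMI were set beside those that did not, over all libraries. Ctla4, an inhibitory receptor, was detected in 73.3% of the 101 cells with Il10 and in 27.3% of the 5529 cells without, although the cells with Il10 were shallower, with a median of 1312 UMIs, against 2059 in those without. The inhibitory receptor Lag3 was detected in 51.5% of cells with Il10 and 16.9% of those without. Maf, a transcription factor that drives Il10 in CD4 T cells, was at 52.5% with Il10 and 15% without, and Prdm1, which encodes Blimp-1, was at 33.7% with Il10 and 8.19% without. Cd8a went the other way, at 17.8% with Il10 and 37.5% without. Among the receptors, Tgfbr2 was detected in 10.9% of cells with Il10 (5.56 to 18.7) and 21.6% of cells without (20.5 to 22.7), and Il10ra in 10.9% of cells with Il10 and 6.24% of cells without. Tgfb1 was detected at like shares, 15.8% with Il10 and 16.4% without. Cells of the same library and subset share their source, so these shares describe the cells and not the conditions. Within CD4 T cells alone, where 30 cells had Il10, Prdm1 was at 46.7% with Il10 and 9.70% without, Lag3 at 66.7% with Il10 and 21.9% without, and Tgfbr2 at 3.33% with Il10 and 21.6% without. Of these 30 cells, 27 lay in the CD4 sub-cluster of 406 cells and 3 in that of 655, so the shares also contrast the sub-clusters. Within regulatory T cells, where 43 cells had Il10, Ctla4 was at 81.4% with Il10 and 73.8% without, Maf at 62.8% with Il10 and 52.9% without, and Tgfbr2 at 9.30% with Il10 and 10.9% without, all with overlapping intervals. Lag3 in these cells was at 41.9% with Il10 (27.0 to 57.9) and 21.1% without (17.4 to 25.2).

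**Figure D3:**
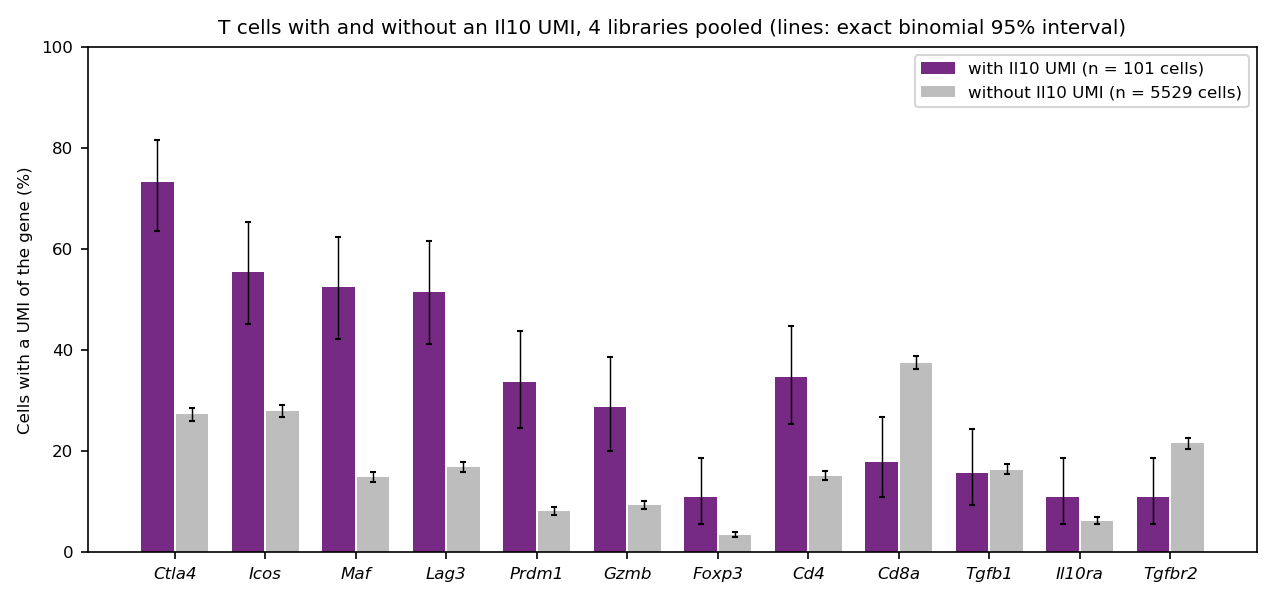
Share of T cells with a UMI of each named gene (%, y axis) among the 101 T cells with an Il10 UMI and the 5529 without one, 4 libraries pooled, with exact binomial 95% intervals as lines. Ctla4, Icos, Maf, Lag3, Prdm1 and Gzmb lie higher in the cells with Il10 (Ctla4 73.3% against 27.3%), and Cd8a and Tgfbr2 lie lower (Tgfbr2 10.9% against 21.6%).

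Plasma cells were the other Il10 source, and their libraries did not follow the order seen in T cells. Il10 in plasma cells was 19.4 CPM (13 UMIs) in KO anti-PD-1, 33.6 CPM (37 UMIs) in KO IgG, 38.1 CPM (55 UMIs) in WT anti-PD-1 and 22.9 CPM (45 UMIs) in WT IgG. Anti-PD-1 went with a higher level in WT, at a ratio of 1.67 to WT IgG (1.10 to 2.53), and a lower one in KO, at a ratio of 0.577 to KO IgG (0.281 to 1.11) whose interval includes 1. KO anti-PD-1 was 0.508 times WT anti-PD-1 (0.255 to 0.943). Single cells weigh heavily here, since 1 cell held up to 17 of the 55 UMIs in WT anti-PD-1, and thinned to 1000 UMIs the WT ratio turned to 0.638. Immunoglobulin transcripts took 58.3% of plasma cell UMIs in KO anti-PD-1, 52.7% in KO IgG, 59.5% in WT anti-PD-1 and 56.9% in WT IgG, which scales the CPM of every other gene.

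By the heavy chain gene with most UMIs in a cell, Il10 was detected in 14 of 36 plasma cells dominated by Ighm (38.9%, 23.1 to 56.5) and in 14 of 56 dominated by Ighg2b (25.0%). It was detected in 15 of 138 dominated by Ighg2c (10.9%) and in 11 of 152 dominated by Igha (7.24%, 3.67 to 12.6). Median depth in these sets ran from 11342.5 UMIs for Ighm to 14419.5 for Ighg2b, so the IgM and IgA sets, which do not overlap in their intervals, were of like depth. Summed T cell markers in plasma cells were 101 CPM in KO anti-PD-1, 88.1 in KO IgG, 155 in WT anti-PD-1 and 98.0 in WT IgG, against at least 4965 CPM in T cells.

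Il10ra, the chain that binds IL-10, was highest in neutrophils and non-classical monocytes, leaving out classes with under 50 cells in any library. Pooled over libraries it was 142 CPM (135 to 150) in neutrophils and 140 CPM (123 to 159) in non-classical monocytes, followed by classical monocytes at 74.0 CPM and NK cells at 65.2 CPM. The neutrophil and non-classical monocyte levels do not differ beyond their intervals. Among neutrophil clusters the cells marked by the interferon-induced gene Rsad2 had 208 CPM (183 to 235), above the Siglecf-high cells at 144 CPM and the Retnlg-high cells at 133 CPM. B cells had 58.3 CPM (49.0 to 68.8), CD8 T cells 55.4 CPM (46.1 to 66.0) and regulatory T cells 51.1 CPM (35.4 to 71.5), by point value above type 2 dendritic cells at 48.8 CPM and macrophages at 44.1 CPM (40.9 to 47.5). For the T cells this order depends on how subsets are taken. With subsets taken by detected genes, CD8 T cells had 32.6 CPM and regulatory T cells 33.2 CPM, below both of those myeloid classes. Macrophage clusters differed. The Arg1-high cells had 60.4 CPM (55.2 to 66.0), by point value above the B, CD8 T and regulatory T cells, and the Gpnmb-high cells 26.7 CPM (23.1 to 30.6). All T cells together had 29.0 CPM, tumour cells 4.44 CPM and plasma cells 3.67 CPM.

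In T cells Il10ra was 43.1 CPM (87 UMIs) in KO anti-PD-1, 28.0 CPM (52 UMIs) in KO IgG, 31.7 CPM (144 UMIs) in WT anti-PD-1 and 20.9 CPM (101 UMIs) in WT IgG. The anti-PD-1 library was the higher one within each genotype, by a ratio of 1.54 in KO (1.08 to 2.21) and 1.51 in WT (1.17 to 1.97). Of the 6 genes in T cells, all with enough UMIs to be tested, Il10 and Il10ra were past 1.5-fold higher and none lower in both of these comparisons. Over all genes tested in T cells 12.1% were past 1.5-fold higher and 10.4% lower in KO anti-PD-1 over KO IgG, and 6.33% higher and 3.46% lower in WT anti-PD-1 over WT IgG. The Il10ra calls lay close to the fold: over the alternative settings the ratio ran from 1.19 to 2.01 in KO and from 1.22 to 1.98 in WT, and both lowest values came with the T cell make-up held at that of WT IgG. In CD4 T cells Il10ra in WT anti-PD-1 was 2.51 times that in WT IgG (1.20 to 5.63), and in CD8 T cells KO anti-PD-1 was 1.72 times WT anti-PD-1 (1.08 to 2.68). Naive T cells held little Il10ra, 13.7 CPM in KO anti-PD-1, 24.9 in KO IgG, 14.3 in WT anti-PD-1 and 8.78 in WT IgG, from 6 to 21 UMIs each. Their ratio of KO IgG to WT IgG was 2.84 (1.43 to 5.73), where 16.7% of genes were past 1.5-fold higher. In NK cells Il10ra was 84.3 CPM in KO anti-PD-1, 69.1 in KO IgG, 70.0 in WT anti-PD-1 and 42.4 in WT IgG. The WT IgG library was the low one, and WT anti-PD-1 was 1.65 times as high (1.05 to 2.64), where 8.84% of genes were past 1.5-fold higher. Neutrophils had 173 CPM in KO anti-PD-1, 134 in KO IgG, 141 in WT anti-PD-1 and 129 in WT IgG. The KO anti-PD-1 neutrophils were 1.29 times KO IgG (1.11 to 1.51), short of 1.5-fold, and this ratio ran from 0.844 to 1.36 over the alternative settings.

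Il10rb, the shared chain, was highest in the Gpnmb-high macrophages, which are rich in lysosomal and lipid-handling genes, at 145 CPM (136 to 154), and in Rsad2-high neutrophils at 136 CPM (116 to 158), whose intervals overlap. All macrophages had 114 CPM, neutrophils 96.8 CPM, NK cells 87.2 CPM, T cells 39.6 CPM and tumour cells 22.9 CPM. It varied little between libraries. Il10rb in macrophages was 99.3 CPM in KO anti-PD-1, 125 in KO IgG, 116 in WT anti-PD-1 and 112 in WT IgG, and in T cells 45.1 CPM in KO anti-PD-1, 37.1 in KO IgG, 42.5 in WT anti-PD-1 and 35.5 in WT IgG. The largest shift in a class past 1.5-fold was in plasma cells, where WT anti-PD-1 had 11.8 CPM (17 UMIs) and WT IgG 26.9 CPM (53 UMIs), a ratio of 0.438 (0.238 to 0.768). In that comparison of plasma cells 2 of the 5 tested genes were past 1.5-fold higher and 2 lower, beside 7.56% and 13.1% of all genes tested.

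Tgfb1 was found in every class and was highest in monocytes and macrophages. Pooled levels were 315 CPM (289 to 342) in non-classical monocytes, 273 CPM (258 to 289) in classical monocytes, 244 CPM (236 to 251) in macrophages and 198 CPM (182 to 216) in NK cells, and these 4 intervals meet only at 289 CPM, between the monocyte classes. Among T cells the regulatory subset was highest at 165 CPM (136 to 199), above CD8 T cells at 110 CPM, CD4 T cells at 104 CPM and naive T cells at 48.2 CPM. Tumour cells had 42.6 CPM, with 50.1 in KO anti-PD-1, 36.1 in KO IgG, 46.9 in WT anti-PD-1 and 40.7 in WT IgG. Plasma cells were lowest, at 16.4 CPM.

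Differences in Tgfb1 between libraries were small in the classes that express it most. In macrophages it was 248 CPM in KO anti-PD-1, 241 in KO IgG, 219 in WT anti-PD-1 and 267 in WT IgG. WT anti-PD-1 was the low library, at 0.819 times WT IgG (0.751 to 0.893), while KO anti-PD-1 and KO IgG were close. In classical monocytes it was 322 CPM (408 UMIs) in KO anti-PD-1, 259 CPM (212 UMIs) in KO IgG, 226 CPM (326 UMIs) in WT anti-PD-1 and 291 CPM (282 UMIs) in WT IgG. The anti-PD-1 library was thus the higher one in KO, by a ratio of 1.24 (1.05 to 1.47), and the lower one in WT, by a ratio of 0.779 (0.662 to 0.916), and KO anti-PD-1 was 1.42 times WT anti-PD-1 (1.23 to 1.65). None of these ratios passed 1.5-fold. Beside them, summed macrophage markers in the same cells were 4915 CPM in KO anti-PD-1, 4550 in KO IgG, 2489 in WT anti-PD-1 and 2989 in WT IgG, and their part in the Tgfb1 ratios was not tested.

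In NK cells Tgfb1 was 165 CPM in KO anti-PD-1, 251 in KO IgG, 162 in WT anti-PD-1 and 225 in WT IgG. Both anti-PD-1 libraries lay below both IgG libraries, with ratios of 0.658 in KO (0.505 to 0.857) and 0.719 in WT (0.565 to 0.912). The KO ratio was past 1.5-fold lower, as were 16.0% of all genes tested there. In T cells as a whole Tgfb1 was 106 CPM in KO anti-PD-1, 71.0 in KO IgG, 93.6 in WT anti-PD-1 and 81.1 in WT IgG. The order there went the opposite way from NK cells, but not in each T cell subset. CD8 T cells had anti-PD-1 to IgG ratios of 0.888 in KO and 0.885 in WT. Regulatory, CD4 and naive T cells and those given no subset name had ratios above 1 in both. The ratio of KO anti-PD-1 to KO IgG in T cells, 1.5 after rounding (1.20 to 1.88), was just short of the fold used. Over the alternative settings, with make-up held at that of WT IgG among them, it ran from 1.33 to 1.71. The ratio of WT anti-PD-1 to WT IgG ran from 1.05 to 1.30. CD4 T cells gave 120 CPM in KO anti-PD-1 and 58.9 CPM in KO IgG, a ratio of 2.03 (1.10 to 4.04), against 108 CPM in WT anti-PD-1 and 104 CPM in WT IgG. In B cells, KO anti-PD-1 had 172 CPM and KO IgG 91.0 CPM, a ratio of 1.89 (1.16 to 3.10), where 12.9% of genes were past 1.5-fold higher. The summed level of 11 neutrophil markers in B cells was 5542 CPM in KO anti-PD-1, 3623 in KO IgG, 1003 in WT anti-PD-1 and 1113 in WT IgG, with no marker at 0, and its part in the B cell ratios of Tgfb1 and Tgfbr2 was not tested. Neutrophils had 133 CPM in KO anti-PD-1, 113 in KO IgG, 133 in WT anti-PD-1 and 140 in WT IgG, and no ratio there passed 1.5-fold.

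**Figure D4:**
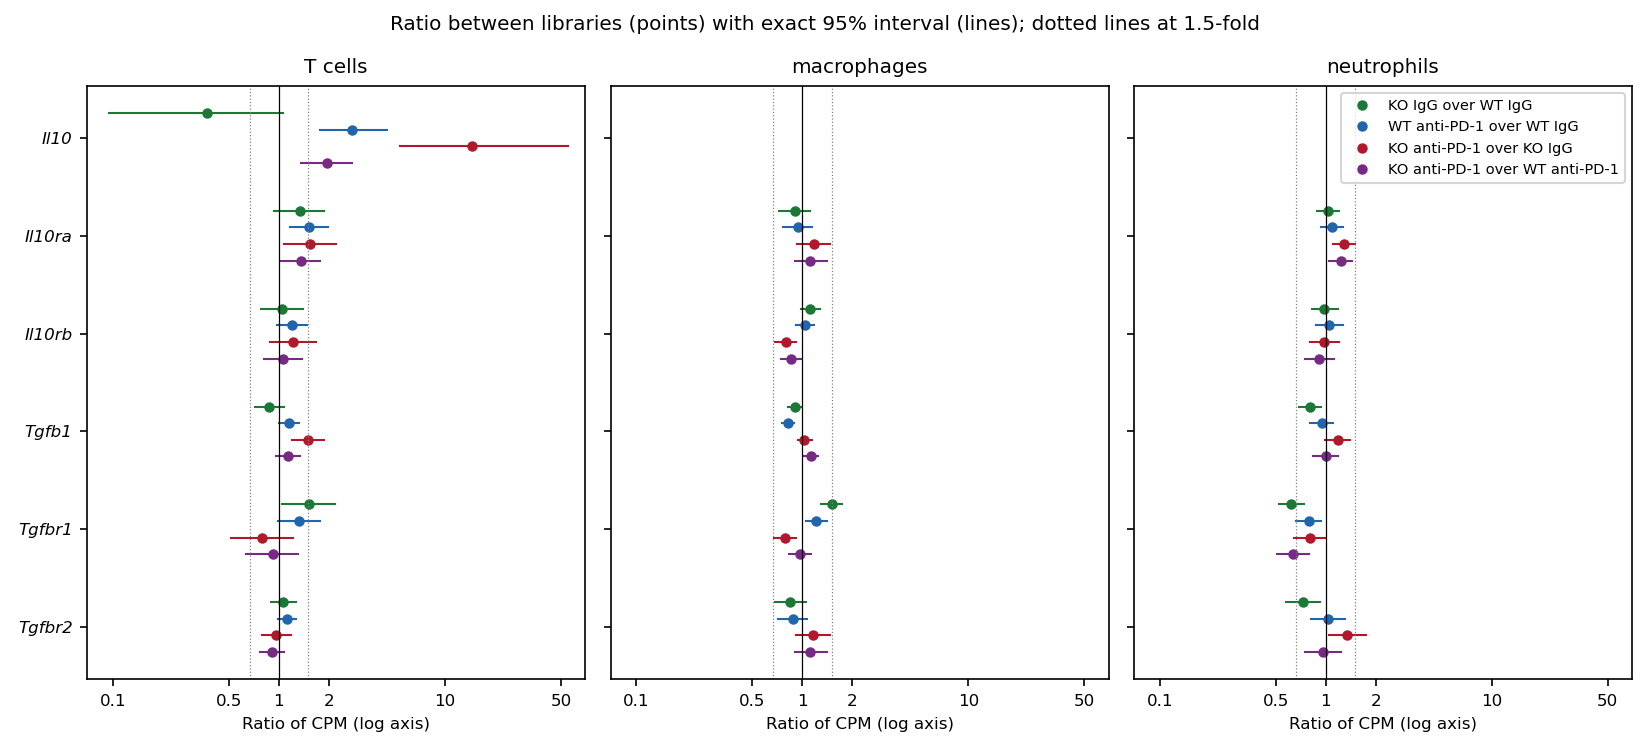
Ratio of CPM between libraries (x axis, log scale) for the 6 genes (y axis) in T cells, macrophages and neutrophils, 1 point per comparison with its exact 95% interval, and dotted lines at 1.5-fold; Il10 is drawn in T cells only, since it had too few UMIs in the other classes. Il10 in T cells lies farthest out, at 14.5 for KO anti-PD-1 over KO IgG, and Tgfbr1 lies above 1 in macrophages (1.5) and below 1 in neutrophils (0.622) for KO IgG over WT IgG.

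The chains of the TGF-beta receptor differed in the classes, of those with at least 50 cells in each library, where they were highest. Tgfbr1, the signalling kinase that is recruited second, was highest in neutrophils and macrophages: 102 CPM (95.8 to 109) in neutrophils, 92.3 CPM (87.6 to 97.2) in macrophages and 83.5 CPM (70.6 to 98.1) in non-classical monocytes, with overlap between neighbours, against 26.4 CPM in classical monocytes and 21.9 CPM in T cells. Within T cells the regulatory subset had 69.2 CPM (50.6 to 92.3) and no other subset more than 22.1 CPM. Tgfbr2, which binds the ligand, was highest in T and B cells: 135 CPM (120 to 150) in CD8 T cells, 120 CPM in CD4 T cells, 104 CPM in all T cells and 97.7 CPM in B cells, against 60.3 CPM (55.4 to 65.5) in neutrophils, 43.7 CPM in macrophages, 23.4 CPM in tumour cells and 6.64 CPM in migratory dendritic cells. With subsets taken by detected genes Tgfbr2 was 98.9 CPM in CD8 T cells and 117 CPM in CD4 T cells, which turned the order of that pair. NK cells, also lymphocytes, had 67.1 CPM (57.6 to 77.6), which overlaps the neutrophil interval. Alveolar macrophages, with 23 to 46 cells per library, were an exception among myeloid cells, at 146 CPM (117 to 180), and plasmacytoid dendritic cells had 114 CPM (90.3 to 141).

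Tgfbr1 in neutrophils was 69.1 CPM (130 UMIs) in KO anti-PD-1, 85.8 CPM (229 UMIs) in KO IgG, 109 CPM (228 UMIs) in WT anti-PD-1 and 138 CPM (354 UMIs) in WT IgG. Both KO libraries lay below both WT libraries, and within each genotype the anti-PD-1 library lay below the IgG one. KO IgG was 0.622 times WT IgG (0.524 to 0.736), and KO anti-PD-1 was 0.633 times WT anti-PD-1 (0.507 to 0.789). In these comparisons Tgfbr1 alone of the 5 tested genes was past 1.5-fold lower and none was higher, beside 10.4% of all genes lower and 6.05% higher in KO IgG over WT IgG, and 11.9% lower and 9.78% higher in KO anti-PD-1 over WT anti-PD-1. The ratios to IgG were 0.806 in KO (0.645 to 1.00) and 0.791 in WT (0.667 to 0.937). A neutrophil cluster of 84 cells also held T cell markers, at a summed 3075 CPM, against 255 CPM in all but the 2 smallest clusters. Without these 2 clusters, an alternative chosen after seeing the data, the ratio was 0.616 for KO IgG over WT IgG and 0.659 for KO anti-PD-1 over WT anti-PD-1. With at least 500 detected genes per cell neither was past 1.5-fold, at 0.757 for KO IgG over WT IgG and 0.779 for KO anti-PD-1 over WT anti-PD-1, and with cells thinned to 1000 UMIs the ratio was 0.547 for KO IgG over WT IgG and 0.713 for KO anti-PD-1 over WT anti-PD-1, the second short of 1.5-fold.

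Neutrophil clusters differed in Tgfbr1 and in their share of the libraries. The Rsad2-high cells had 170 CPM (148 to 195), the Siglecf-high cells 157 CPM (145 to 171) and the Retnlg-high cells, which carry genes of younger neutrophils, 34.3 CPM (28.7 to 40.7). The Retnlg-high cells were 54.8% of neutrophils in KO anti-PD-1, 47.4% in KO IgG, 40.4% in WT anti-PD-1 and 34.5% in WT IgG. In Siglecf-high neutrophils Tgfbr1 was 126 CPM in KO anti-PD-1, 144 in KO IgG, 159 in WT anti-PD-1 and 183 in WT IgG, and in Rsad2-high neutrophils 93.2 CPM in KO anti-PD-1, 124 in KO IgG, 177 in WT anti-PD-1 and 229 in WT IgG. The order of the 4 libraries was therefore the same in both clusters as in all neutrophils. Beside these levels, the summed level of 8 classical monocyte markers ran the opposite way in all neutrophils, at 2012 CPM in KO anti-PD-1, 1153 in KO IgG, 1015 in WT anti-PD-1 and 836 in WT IgG. In Siglecf-high cells it was 2718 CPM in KO anti-PD-1, 1312 in KO IgG, 794 in WT anti-PD-1 and 681 in WT IgG, with no marker at 0, and its part in the Tgfbr1 levels was not tested. Retnlg-high cells did not share the order of Tgfbr1, at 38.8 CPM in KO anti-PD-1, 32.8 in KO IgG, 29.6 in WT anti-PD-1 and 35.9 in WT IgG. With the make-up held at that of WT IgG, the ratio of KO IgG to WT IgG was 0.720 and that of KO anti-PD-1 to WT anti-PD-1 was 0.733, both short of 1.5-fold. In Rsad2-high neutrophils alone the ratio of KO IgG to WT IgG was 0.541 (0.362 to 0.795), where 16.6% of genes were past 1.5-fold lower.

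**Figure D5:**
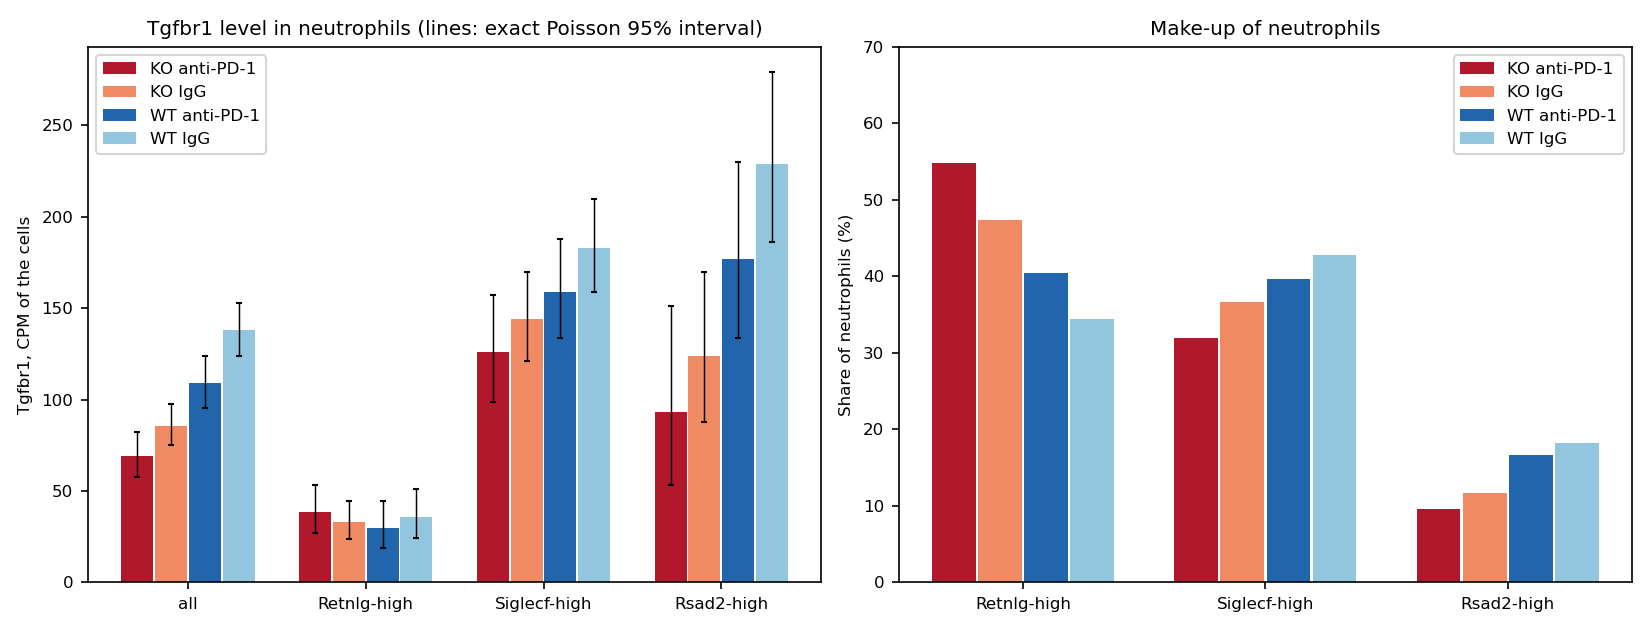
Left, Tgfbr1 level (CPM, y axis) in all neutrophils and in the 3 main neutrophil clusters, with exact Poisson 95% intervals; right, share of each cluster among neutrophils (%, y axis), with 1 bar per library in the order KO anti-PD-1, KO IgG, WT anti-PD-1 and WT IgG. In all neutrophils Tgfbr1 is lowest in KO anti-PD-1 (69.1 CPM) and highest in WT IgG (138 CPM), and the share of Retnlg-high cells, where Tgfbr1 is low, is highest in KO anti-PD-1 (54.8%) and lowest in WT IgG (34.5%).

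Macrophages showed another order of Tgfbr1: 89.3 CPM in KO anti-PD-1, 114 in KO IgG, 92.1 in WT anti-PD-1 and 75.9 in WT IgG. KO IgG was the highest library, at 1.5 times WT IgG (1.30 to 1.74), past 1.5-fold before rounding, as were 6.59% of all genes tested in macrophages. It was the single gene of the 5 tested past that fold, and none was past it lower, beside 5.85% of all genes. The anti-PD-1 library was lower than IgG in KO, by a ratio of 0.784 (0.673 to 0.913), and higher in WT, by a ratio of 1.21 (1.05 to 1.41). Thinned to 1000 UMIs per cell, the ratio of KO IgG to WT IgG came to 1.03. Both macrophage clusters had KO IgG as the highest library, at 141 CPM in Gpnmb-high and 79.6 CPM in Arg1-high cells, against 95.5 CPM in Gpnmb-high and 58.7 CPM in Arg1-high cells of WT IgG. Classical monocytes held 35.5 CPM in KO anti-PD-1 (45 UMIs), 18.3 in KO IgG (15 UMIs), 19.4 in WT anti-PD-1 (28 UMIs) and 31.9 in WT IgG (31 UMIs). The ratio of KO anti-PD-1 to KO IgG there was 1.94 (1.06 to 3.74), where 8.14% of genes were past 1.5-fold higher, but it was 0.997 with no doublet removal. In T cells Tgfbr1 was 21.8 CPM in KO anti-PD-1, 27.4 in KO IgG, 23.8 in WT anti-PD-1 and 18.0 in WT IgG. KO IgG was 1.52 times WT IgG (1.05 to 2.17); of the 6 genes in that comparison Tgfbr1 was past 1.5-fold higher and Il10 lower, beside 7.87% and 6.02% of all genes tested.

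Tgfbr2 hardly varied in T cells, at 100 CPM in KO anti-PD-1, 104 in KO IgG, 110 in WT anti-PD-1 and 98.3 in WT IgG, with ratios between 0.913 and 1.12. Macrophages were as even, at 46.4 CPM in KO anti-PD-1, 40.0 in KO IgG, 41.3 in WT anti-PD-1 and 47.3 in WT IgG. In neutrophils KO IgG was the low library, with 47.6 CPM, against 64.3 in KO anti-PD-1, 67.0 in WT anti-PD-1 and 65.1 in WT IgG, at 0.731 times WT IgG (0.576 to 0.926). B cells had 61.1 CPM in KO anti-PD-1 (16 UMIs), 112 in KO IgG (37 UMIs), 108 in WT anti-PD-1 (108 UMIs) and 91.1 in WT IgG (72 UMIs). KO anti-PD-1 was the low one, at 0.567 times WT anti-PD-1 (0.313 to 0.963), where 18.9% of all genes were past 1.5-fold lower. Counted over the 6 genes, all 21 classes, subsets and clusters and the 4 comparisons, 405 ratios had enough UMIs to be tested, and 74 of them (18.3%) were past 1.5-fold in either direction. All genes tested in the same comparisons gave 21.6%, weighted alike, so the 6 genes were not past 1.5-fold more often than these. The genes were not matched for UMI count, on which such shares depend, and subsets and clusters repeat cells of their classes.

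Genes that act with IL-10 in T cells were read from lists chosen with earlier results known. A list of 12 transcription factors linked to Il10 in T cells does not say which raise and which lower it. Of these, 7 were past 1.5-fold higher and none lower in KO anti-PD-1 over KO IgG. The median log2 ratio of the list was 0.82, against 0.04 over all 8806 genes tested. Of all genes, 12.1% were past that fold higher and 10.4% lower. Batf, a factor of activated T cells, had a ratio of 1.96 (1.51 to 2.57), Tbx21, the master factor of type 1 helper cells, 1.92 (1.27 to 2.96) and Irf4 1.89 (1.08 to 3.40). Maf was at 164 CPM in KO anti-PD-1 and 112 CPM in KO IgG, short of 1.5-fold. In WT anti-PD-1 over WT IgG 3 of the 12 were past it, Prdm1 at 1.73, Id2 at 1.58 and Ikzf3 at 1.56, and the median was 0.41, against 0.10 over all genes, of which 6.33% were past the fold higher.

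Of 12 other suppressive genes tested in T cells, 8 were past 1.5-fold higher and none lower in KO anti-PD-1 over KO IgG, beside 12.1% and 10.4% of all genes, with a median log2 ratio of 1.04. In WT anti-PD-1 over WT IgG 7 of 13 were higher and 1 lower, beside 6.33% and 3.46% of all genes, with a median of 0.69. The T cell make-up moved with these groups, with naive cells at 17.6% of T cells in KO anti-PD-1, 45.4% in KO IgG, 24.4% in WT anti-PD-1 and 40.4% in WT IgG, and its part in the list counts was not tested. Lag3 was 204 CPM in KO anti-PD-1 and 52.2 CPM in KO IgG, and 186 CPM in WT anti-PD-1 and 86.9 CPM in WT IgG. Gzmb, a cytotoxic protease that is also used by regulatory T cells, had a ratio of 5.04 in KO (3.95 to 6.52) and 2.48 in WT (2.20 to 2.80). Ctla4 had a ratio of 2.14 in KO and 1.62 in WT, and its pattern across cells is the one most like that of Il10 when T cells are split into subsets (Pearson r of 0.782 over 60 points of class or subset by library, an addition after seeing the data, with points that share libraries). Over the 44 points of classes by library, before that split, the genes most like Il10 were Myl4 (r of 0.789), Ighg2c, Iglv3, Igkv3-2 and Tg, among them immunoglobulin genes of plasma cells. In KO IgG over WT IgG 6 of the 13 suppressive genes were past 1.5-fold lower and none higher, beside 6.02% and 7.87% of all genes, among them Lag3 at 0.601 and Gzmb at 0.507. Of 8 signalling genes of the IL-10 receptor tested in KO anti-PD-1 over KO IgG, Ptpn11 was past 1.5-fold higher at 1.51, and Socs1, at 0.574, and Socs3, at 0.638, both feedback inhibitors of cytokine signalling, were lower, beside 12.1% of all genes higher and 10.4% lower.

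On the TGF-beta side, of 10 tested genes of latent TGF-beta release and processing in T cells 4 were past 1.5-fold higher and 1 lower in KO anti-PD-1 over KO IgG, beside 12.1% and 10.4% of all genes. Lrrc32, which encodes GARP and docks latent TGF-beta on regulatory T cells, was 9.41 CPM in KO anti-PD-1 (19 UMIs) and 1.08 CPM in KO IgG (2 UMIs), a ratio of 8.74 (2.11 to 77.4). Furin, the protease that cleaves the TGF-beta precursor, had a ratio of 1.63 (1.19 to 2.24), and Itgb8, an integrin chain that releases TGF-beta, 1.56 (0.875 to 2.87). Of 14 targets of TGF-beta in lymphocytes, 3 were past 1.5-fold higher and none lower in WT anti-PD-1 over WT IgG, beside 6.33% and 3.46% of all genes: the residency integrins Itga1 at 1.74 (1.42 to 2.15) and Itgae at 1.63 (1.39 to 1.93), and Rgs1 at 1.54. In KO anti-PD-1 over KO IgG 1 of the 14 was past it, and the median log2 ratio of 0.04 equalled that of all genes. CD8 T cells were 34.6% of T cells in WT anti-PD-1, 14.6% in WT IgG, 20.7% in KO anti-PD-1 and 8.81% in KO IgG. The part of this make-up in the T cell ratios of these lists was not tested. Of 13 SMAD signalling genes in neutrophils, Tgif1, a co-repressor of SMAD2 and SMAD3, was past 1.5-fold lower in KO IgG over WT IgG at 0.642 (0.534 to 0.770), and so was Smad3 at 0.615 (0.307 to 1.20). These 2 of 13 stand beside 10.4% of all genes lower in that comparison, a share near theirs.

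Tumour cells carried other ligands of the TGF-beta family rather than more Tgfb1. In KO IgG over WT IgG 4 of 5 tested family ligands were past 1.5-fold higher and none lower, beside 16.4% and 14.1% of all genes tested. Inhba, which encodes the activin A subunit, was 94.6 CPM (270 UMIs) in KO IgG and 16.7 CPM (32 UMIs) in WT IgG, a ratio of 5.68 (3.93 to 8.46). It was also higher under anti-PD-1, at 55.2 CPM in KO anti-PD-1 and 25.6 CPM in WT anti-PD-1, which gives 2.15 (1.52 to 3.10) as their ratio. Tgfb1 itself had a ratio of 0.888 (0.655 to 1.21) for KO IgG over WT IgG, while KO anti-PD-1 over WT anti-PD-1 gave 1.07 (0.791 to 1.44). Across cells the genes most like Tgfb1 over the 44 points were Zeb2 (r of 0.919), Rnf130, Diaph1, Ubl3 and Sft2d1, and those most like Tgfbr2 were Nedd9 (r of 0.899), Mef2d, Zfp36l2, Sipa1 and Cnot6l.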

How the data were processed

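Single-cell 3′ libraries were made with 10x v2 reagents, per the labels' protocols. The deposited matrices hold the authors' UMI counts per gene and barcode; their headers give Cell Ranger 3.0.0 as the software. The submitters' processing notes also name a human genome build, while all gene identifiers are mouse ones, so the build is not established and no coordinates are given. Barcodes with at least 200 genes and at most 10% mitochondrial UMIs were kept, and cells with a Scrublet score above 0.25 were removed as doublets (82 in KO anti-PD-1, 104 in KO IgG, 98 in WT anti-PD-1 and 86 in WT IgG), since its own threshold marked 0 cells in KO anti-PD-1 and 3 in KO IgG. Total UMIs of the deposited barcodes were 16078095 in KO anti-PD-1, 17578188 in KO IgG, 22369904 in WT anti-PD-1 and 22506737 in WT IgG. Scrublet was run with scanpy 1.11.5. Clustering used numpy 2.4.6, scikit-learn 1.9.0 and igraph 0.11.9, with 2000 variable genes, 30 principal components and 15 neighbours. Leiden resolution 1 gave 27 clusters, T, tumour and dendritic cells were clustered again, and clusters were named from 29 marker lists. Gene-high clusters are the cluster of a class with the highest level of that gene. The naming rule was set after clusters were seen. The members and all lists were chosen with earlier results of these data known.

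For each class the UMIs of a library were added up and scaled to CPM. Levels carry exact Poisson, shares exact Clopper-Pearson and ratios exact conditional 95% intervals (scipy 1.17.1), which cover counting error only. A gene was tested for a fold where the libraries compared held at least 20 UMIs together in a group of at least 50 cells per library, and it was past 1.5-fold by its point ratio; the background is the percent of all genes past it. With 1 library per group no replicate test exists. Thinned shares use 1000 UMIs per cell and leave out shallower cells. Named genes are the 6 members, up to 4 genes past 1.5-fold per list, ranked by the size of the log2 ratio, and the 5 genes most like Il10, Tgfb1 and Tgfbr2 by the correlation of log2(CPM + 10) over classes; Lag3, Maf, Ctla4, Itgb8 and other genes with values in single cells or in pairs of libraries were added after seeing the data. edgeR 4.0.16 (TMM) and DESeq2 1.42.0 (size factors) served only as alternative scalings. The step that computes ratios was checked on simulated counts. A barcode list was given for 1 library only, so barcodes shared between libraries were not analysed here.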

Additional observations from a re-analysis of the deposited data

Results flagged for a closer look

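Tgfb1 in classical monocytes went opposite ways with anti-PD-1 in the KO and the WT tumours: KO anti-PD-1 was 1.24 times KO IgG and WT anti-PD-1 was 0.779 times WT IgG, and neither interval includes 1. Over the alternative settings the ratio of KO anti-PD-1 to KO IgG ran from 1.16 to 1.31 and that of WT anti-PD-1 to WT IgG from 0.691 to 0.803. Tgfbr1 in macrophages did so in the other direction, with KO anti-PD-1 at 0.784 times KO IgG and WT anti-PD-1 at 1.21 times WT IgG; over the alternative settings the KO ratio ran from 0.777 to 0.856 and the WT ratio from 1.08 to 1.27. Both results were picked from all tested genes and classes because their intervals lay on opposite sides of 1. Many other genes and classes also had ratios on opposite sides of 1, with at least 1 interval that included it. The share of all genes that meets this rule was not computed. With 1 library per group the difference between the genotypes was not tested in either case, and the intervals cover counting error only.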

How the results depend on the processing

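Of 405 ratios, 262 stayed within their interval under all settings run. Under at least 1 setting, 132 left their interval with no change of direction counted. A change of direction was counted only for ratios past 1.5-fold, and 14 had one under at least 1 setting. Some ratios are in both of these counts. Il10 in T cells kept its direction in all, at 9.56 to 20.7 for KO anti-PD-1 over KO IgG, 1.88 to 4.21 for WT anti-PD-1 over WT IgG and 0.194 to 0.529 for KO IgG over WT IgG. No paired analysis was possible because each group is 1 library; for the same reason no replicate could be left out. Depth limits ratios that rest on few UMIs, such as Il10 in KO IgG T cells (4 UMIs). Some ratios could not be had where a library held no UMI, such as Il10 in KO IgG T cells with a Foxp3 UMI. The cause was not tested for any change below. The share of genes past 1.5-fold ran from 3.46% to 30.0% over 40 comparisons, from 0.792% to 15.3% with a minimum of 100 UMIs, and from 8.98% to 34.9% with 1 UMI in each library.

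With cells thinned to 1000 UMIs, Tgfbr1 in macrophages was 1.03 for KO IgG over WT IgG (1.5 before) and 0.810 for KO anti-PD-1 over WT anti-PD-1 (0.970). In plasma cells Il10 was 0.401 for KO IgG over WT IgG (1.47) and 0.638 for WT anti-PD-1 over WT IgG (1.67), and Tgfb1 was 2.23 for that WT comparison (0.639). Tgfbr2 in B cells was 1.09 for KO anti-PD-1 over KO IgG (0.544). For KO anti-PD-1 over WT anti-PD-1, Il10rb in T cells given no subset was 1.02 (0.659) and Il10ra in Retnlg-high neutrophils 0.927 (1.61).

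With at least 500 genes per cell, Tgfbr1 in neutrophils was 0.757 for KO IgG over WT IgG (0.622), Il10 in regulatory T cells 13.3 for WT anti-PD-1 over WT IgG (3.70) and Tgfbr2 in Retnlg-high neutrophils 0.767 for KO anti-PD-1 over KO IgG (1.59). Without doublet removal that Il10 ratio was 1.54, and Tgfbr1 in classical monocytes was 1.07 for KO IgG over WT IgG (0.573) and 0.997 for KO anti-PD-1 over KO IgG (1.94). At resolution 0.5 the first of these was 1.04; Il10rb in Rsad2-high neutrophils was 1.01 (0.644) and Il10ra in T cells given no subset 1.14 (0.638) for KO IgG over WT IgG. At resolution 2 that Il10ra ratio was 1.24, and Il10ra in naive T cells was 3.58 for KO anti-PD-1 over KO IgG (0.549). As a mean over cells, plasma cell Tgfbr2 was 0.980 for KO IgG over WT IgG (1.79) and 0.840 for WT anti-PD-1 over WT IgG (1.77). With make-up held at WT IgG, chosen after seeing the data, Il10 in T cells was 1.33 for KO anti-PD-1 over WT anti-PD-1 (1.94). With subsets by detected genes, regulatory T cell Il10 was 7.43 for KO anti-PD-1 over WT anti-PD-1 (1.31) and Tgfbr2 0.839 for KO anti-PD-1 over KO IgG (1.61).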
